A study of Mus musculus with 47 samples.

Results

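The genes described here encode subunits of the mitochondrial respiratory chain and of the machinery that imports proteins into mitochondria, measured in mouse liver. They were chosen by name, as genes with 1 symbol on the platform that starts with Nduf, Sdh, Uqcr, Cox4 to Cox8, Atp5, Timm or Tomm, apart from Tomm40l and the assembly factors named in the manner of Sdhaf. There were 42 such genes among 6889 genes with 1 symbol in the table, and the brightest of a gene's 53 probesets in all stood for it. Grouped by symbol, they were 13 genes of complex I, 2 of complex II, 5 of complex III, 5 of complex IV and 8 of ATP synthase. A further 7 were of import at the inner membrane (Timm) and 2 of import at the outer membrane (Tomm). The 13 hold Ndufa4l2 by its symbol only, as it is a relative of a complex IV subunit. Values given for complex I include it. Livers of 47 mice were each measured on 1 Affymetrix Mouse Gene 1.0 ST array. All mice were female hairless SKH:QS mice that entered the study at 8 weeks of age and were handled weekly, 30 times in 36 weeks. Control mice were sham treated without sunscreen, and the others had a ZnO sunscreen, a TiO2 sunscreen that also holds organic filters, or an organic sunscreen without either metal oxide. Each was given without UVR (Control-UVR, ZnO-UVR, TiO2-UVR and Organic-UVR) or with 29 kJ/m2 of UVR at each treatment (Control + UVR, ZnO + UVR, TiO2 + UVR and Organic + UVR). Each group had 6 arrays, apart from ZnO + UVR with 5. By the methods the 10 mice of a group shared 1 cage, and by the labels mice were housed singly. If they shared a cage, effects of cage and of treatment cannot be told apart.

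The respiratory chain passes electrons from NADH through complex I, or from succinate through complex II, by way of coenzyme Q to complex III and from there through cytochrome c to complex IV, which reduces oxygen. Complexes I, III and IV pump protons across the inner membrane, and ATP synthase uses the return of these protons to make ATP. Almost all subunits are encoded in the nucleus and enter through the Tomm complex of the outer membrane and the Timm complexes of the inner membrane, and hepatocytes are rich in mitochondria.

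Nuclear respiratory factor 1 (NRF-1), factors of the ETS family such as GABP (nuclear respiratory factor 2) and CREB are known regulators of such genes. The letters of their sites were therefore searched in the 250 bases before annotated transcript starts of each gene (RefSeq, GRCm38.p6, both strands). For some genes such a start lies inside the gene's span, so that the window lies partly or wholly within the gene. Windows were found for 33 of the 42 genes. The NRF-1 core GCATGCGC was in 5 of these 33 (15.2%, against 2.56% of 27025 genes), the ETS core CCGGAAG in 7 (21.2% against 7.83%) and the cyclic AMP response element TGACGTCA, searched after the window of Uqcrfs1 had been read, in 3 (9.09% against 1.77%). The NRF-1 core preceded by the letters GC, a palindrome, was in Atp5g2 and Ndufa11 (6.06% against 0.88%). The ERR site AAGGTCA (1 of 33 genes, 3.03% against 4.7%) and the TATA letters TATAAA (3 of 33, 9.09% against 14.3%) were no more frequent than over all genes. These matches are descriptions of the letters and were not tested. Not all of them lie before the gene. The cyclic AMP response element of Ndufa10 lies within the gene's span. The same holds for the ETS matches of Timm8a2 and the TATA letters of Ndufs7, whose whole windows lie within the gene, as do those of Atp5d. The stretches below are those of 8 genes that recur in the results or stand for a motif, with the matches in capitals and 25 bases on either side where the window allows. They lie at chr15:102671055-102671114 (Atp5g2, minus strand), chr17:56717579-56717736 (Ndufa11, plus), chr15:82354342-82354399 (Ndufa6, minus), chr10:80901129-80901186 (Timm13, minus), chr10:80406856-80406912 (Uqcr11, minus), chr11:115419926-115419982 (Atp5h, minus), chr1:92473793-92473850 (Ndufa10, minus) and chr13:30545317-30545370 (Uqcrfs1, minus).
Atp5g2: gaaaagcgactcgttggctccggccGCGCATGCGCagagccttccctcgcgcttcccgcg
Ndufa11: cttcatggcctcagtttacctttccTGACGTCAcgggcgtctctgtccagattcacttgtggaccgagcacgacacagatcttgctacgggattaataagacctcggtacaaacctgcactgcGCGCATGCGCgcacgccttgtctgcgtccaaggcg
Ndufa6: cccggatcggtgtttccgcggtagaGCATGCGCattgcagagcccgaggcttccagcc
Timm13: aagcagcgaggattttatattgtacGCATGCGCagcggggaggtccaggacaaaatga
Uqcr11: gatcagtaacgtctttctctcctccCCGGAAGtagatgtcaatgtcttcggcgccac
Atp5h: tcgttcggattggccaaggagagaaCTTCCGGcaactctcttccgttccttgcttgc
Ndufa10: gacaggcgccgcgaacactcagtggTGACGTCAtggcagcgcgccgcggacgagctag
Uqcrfs1: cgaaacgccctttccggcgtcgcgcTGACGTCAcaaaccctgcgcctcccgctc

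The table covers a part of the array, 9815 transcripts after 6568 control probesets were left out. The values are log2 levels. Probesets differ in how strongly they respond, so levels are compared between groups and not between genes. Of the markers of the labelled tissue, 8 of 10 measured hepatocyte genes lay above 11 (Ahsg at 12.90, Cps1 at 12.66) and the exceptions were Serpina1d (6.90) and Cyp2d9 (5.17). All 6 measured skeletal muscle genes lay between 3.68 and 4.81. In whole tissue, fewer cells of a type and less RNA per cell cannot be told apart. The array Organic-UVR replicate 1 stood apart. The slope of its values on the mean of all arrays was 0.772, against 0.895 to 1.07 for the other arrays, so that bright transcripts read low and dim ones high there, and results for Organic-UVR are given with and without it where it moved them. For 10 of the 42 genes (Atp5l, Atp5pb, Ndufa11, Ndufc1, Ndufs3, Cox6c, Cox7a2l, Cox7b, Timm23 and Timm8a1) the brightest probeset is numbered among probesets of another chromosome than the gene's, the place of a related copy, and its value may belong to gene, copy or both.

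Of the 42 genes, 39 had a mean level above 5.24, the median of all transcripts. The exceptions were Cox8c (4.57), a subunit form of complex IV known from testis, Ndufa4l2 (4.70), a relative of a complex IV subunit that is known to be induced by low oxygen, and Timm8a2 (2.92), a form of a small chaperone of the space between the membranes. In complex I the accessory subunit Ndufa10 read 10.84. In complex II the flavoprotein Sdha, which oxidises succinate, read 10.44 and the membrane anchor Sdhc 8.56. In complex III the small subunits Uqcr11 and Uqcrb read 6.93 and 9.83, and in complex IV Cox7b read 10.74. In ATP synthase Atp5g2, a gene of the membrane ring, read 8.06. Timm23, the channel of the inner membrane, read 9.72, the outer membrane receptor Tomm70a 8.84 and the receptor relative Tomm20l 5.57. Group means of a gene lay close together. Those of Atp5b, the catalytic β subunit of ATP synthase, ranged from 11.86 (Organic-UVR) to 12.09 over the 8 groups and those of Sdha from 10.27 (Organic-UVR) to 10.54.

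Of the 42 genes, 2 were called in 1 comparison with Control-UVR and none in the others. The test was limma over all transcripts and groups with the replicate number as a block, with Benjamini-Hochberg adjustment, and genes with an adjusted p under 0.1 were called. Against Control-UVR, 0 of 42 genes were called in Control + UVR (0.0509% of all transcripts were called), ZnO-UVR (0%), ZnO + UVR (0%), TiO2-UVR (0%), TiO2 + UVR (0.693%, of which 0.52% lower) and Organic + UVR (1.65%, of which 1.4% lower), and 2 were called in Organic-UVR (3.27%). With no adjustment, p was under 0.05 for 3 genes in Control + UVR (12.8% of all transcripts), 0 in ZnO-UVR (1.52%), 0 in ZnO + UVR (2.81%), 0 in TiO2-UVR (3.86%), 0 in TiO2 + UVR (10.2%), 6 in Organic-UVR (19.1%) and 2 in Organic + UVR (17.1%). In no comparison did a gene's values in the groups lie fully apart, where 0.0306% to 1.5% of all transcripts did. The median difference of the 42 genes from Control-UVR was 0.03 in Control + UVR, -0.03 in ZnO-UVR, 0.03 in ZnO + UVR, -0.05 in TiO2-UVR, -0.02 in TiO2 + UVR and -0.06 in Organic + UVR, against medians of -0.00 to 0.03 over all transcripts. With the array slope as a covariate the median was 0.13 in Control + UVR, with 12 genes below 0. After quantile normalization it was 0.11 in Control + UVR. With the slope covariate the median turned to 0.02 in TiO2-UVR, 0.06 in TiO2 + UVR and 0.07 in Organic + UVR. The 95% interval of a difference between groups of 6 was ± 0.32 for the median gene of these and ± 0.29 for the median transcript. Differences well below that were not detectable with these arrays. The interval is not adjusted for the number of transcripts, so larger differences could also go uncalled. An example is Ndufa4l2 in Control + UVR (0.50, adjusted p = 0.125).

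**Figure D1:**
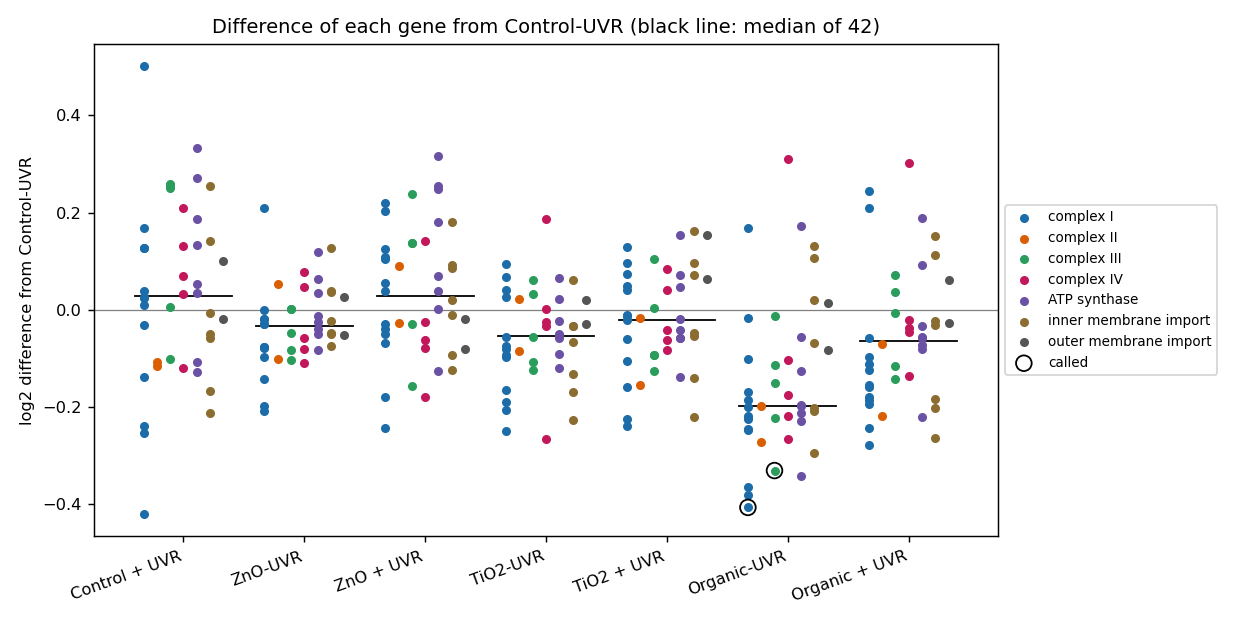
Log2 difference of each of the 42 genes from Control-UVR in the 7 other groups, coloured by complex, with a black line at the median of the 42 and circles around called genes. The medians lie between -0.06 and 0.03 except in Organic-UVR (-0.20), and the circled genes are Ndufs1 (-0.41) and Uqcrfs1 (-0.33).

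In mice given the organic sunscreen without UVR, Ndufs1 and Uqcrfs1 fell, which is 2 of 42 genes (4.76%), where 2.53% of all transcripts were called lower. Called in either direction were 3.27% of all transcripts and 7.01% of the bright transcripts, those with a mean level above the 75th percentile. Ndufs1 is the large iron-sulfur subunit through which electrons pass within complex I, and Uqcrfs1 is the Rieske iron-sulfur protein of complex III. The level of Ndufs1 was 9.09 at the lowest, 9.25 at the median and 9.52 at the highest in Control-UVR, and 8.01, 8.93 and 9.32 in Organic-UVR. Its values overlapped, with 4 arrays of Organic-UVR below all of Control-UVR. The difference was -0.41 (SE 0.13, adjusted p = 0.0958), or 24.6% lower. The level of Uqcrfs1 was 9.51, 9.56 and 9.70 in Control-UVR and 8.73, 9.28 and 9.54 in Organic-UVR. Here, too, 4 of 6 arrays lay below all of Control-UVR. The difference was -0.33 (SE 0.10, adjusted p = 0.0702), or 20.5% lower. With single arrays left out, the call of Ndufs1 was lost in 7 of 12 fits and that of Uqcrfs1 in 6 of 12. Both were lost without Organic-UVR replicate 1, the lowest of all 47 arrays for either gene. Without it the differences were -0.27 for Ndufs1 (adjusted p = 0.459) and -0.23 for Uqcrfs1 (adjusted p = 0.354), and no gene of the 42 was called, while 66 transcripts in all were. Within replicate numbers 1 to 3 the differences were -0.52 for Ndufs1 (adjusted p = 0.207) and -0.32 for Uqcrfs1 (adjusted p = 0.273), and within numbers 4 to 6 they were -0.30 (adjusted p = 0.694) and -0.34 (adjusted p = 0.479).

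The other genes of the chain mostly lay on the same side in Organic-UVR without passing the test. In all, 35 of 42 differences were below 0 with a median of -0.20, where the median was 0.03 for all transcripts and -0.22 for the bright transcripts. The medians were -0.22 for complex I, -0.24 for complex II, -0.15 for complex III, -0.18 for complex IV, -0.20 for ATP synthase, -0.07 for Timm and -0.03 for Tomm genes. Without Organic-UVR replicate 1 they were -0.07, -0.11, -0.01, -0.04, -0.04, 0.01 and 0.04 in the same order. The values nearest to a call were those of Ndufa10 (-0.36, adjusted p = 0.112), Timm23 (-0.29, adjusted p = 0.149) and Sdhc (-0.27, adjusted p = 0.175), and without that array they were -0.26, -0.17 and -0.21. Cox8c had the highest value (0.31, adjusted p = 0.304), and without the array it was 0.08. Without Organic-UVR replicate 1 the median of the 42 was -0.05 with 27 below 0, and that of the bright transcripts was -0.07. With the array slope as a covariate the median was -0.00 with 21 below 0. Within replicate numbers 1 to 3 the median was -0.37 and within numbers 4 to 6 it was 0.03. Among markers of other liver cells in the same comparison, the cholangiocyte keratin gene Krt7 rose (0.57, adjusted p = 0.00641; 0.49 without the array, adjusted p = 0.0314), while its fellow markers Krt19 (0.14) and Sox9 (-0.27) were not called. None of the measured markers of endothelial (3 genes), Kupffer (3), stellate (5), lymphocyte (3), erythroid (1), skeletal muscle (6) or hepatocyte (10) identity was called. All 6 muscle genes lay above 0 (median 0.23, and 0.17 without the array), as dim transcripts. Of 5 stellate genes, 3 had an unadjusted p under 0.05, with Dcn (-0.35) and Rgs5 (-0.46) below 0 and Col1a1 (0.25) above. Without the array 0 of the 5 had, and these differences were -0.09, -0.23 and 0.16 in the same order. The part of these cells in the values of the 42 genes was not tested.

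**Figure D2:**
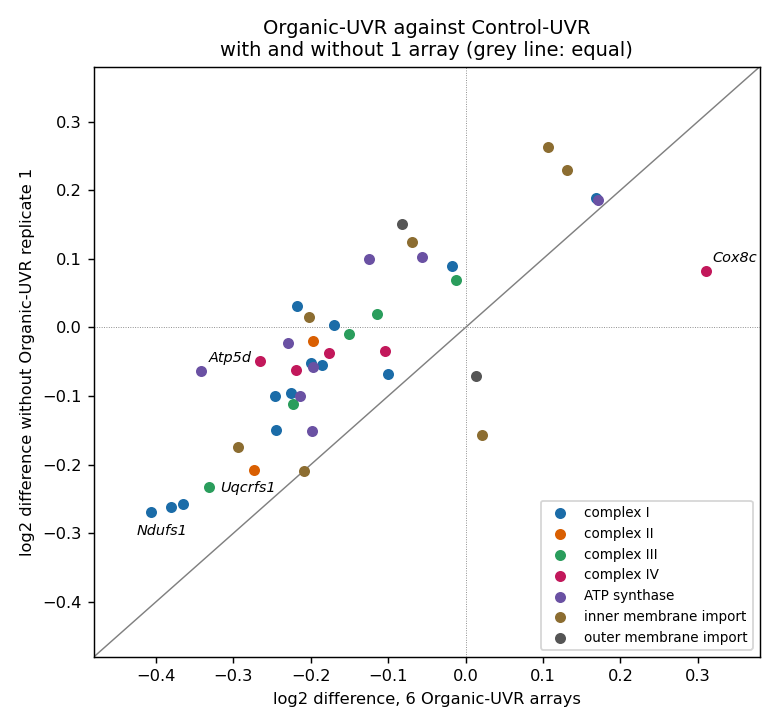
Log2 difference between Organic-UVR and Control-UVR for the 42 genes with all 6 Organic-UVR arrays (horizontal axis) and without Organic-UVR replicate 1 (vertical axis), coloured by complex. Most points lie above the grey line of equal values, and the median moves from -0.20 to -0.05. Ndufs1 moves from -0.41 to -0.27 and Uqcrfs1 from -0.33 to -0.23.

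UVR alone was followed by no called change in these genes. The largest difference was that of Ndufa4l2. Its level was 4.30, 4.50 and 4.77 (lowest, median and highest) in Control-UVR and 4.52, 5.11 and 5.39 in Control + UVR. In Control + UVR 4 arrays lay above all of Control-UVR, 1 lay just below the highest and 1 near the middle. The difference was 0.50 (SE 0.12, adjusted p = 0.125), or 41.5% higher, at a level below the median of all transcripts. It passed the threshold with array weights (adjusted p = 0.0360), when replicate 2 of Control + UVR (0.0479) or replicate 1 of Organic-UVR (0.0632) was left out, and within replicate numbers 4 to 6 (0.0502), and over all alternatives its adjusted p lay between 0.0360 and 0.949. In the sunscreen groups with UVR the medians of Ndufa4l2 were 4.77 (ZnO + UVR), 4.60 (TiO2 + UVR) and 4.76 (Organic + UVR). The difference from Control + UVR was -0.28 (adjusted p = 0.815), -0.37 (0.224) and -0.26 (0.643). The UVR effect with sunscreen minus that without was -0.49 for ZnO (SE 0.17, adjusted p = 0.985), -0.41 for TiO2 (SE 0.17, adjusted p = 0.463) and -0.42 for Organic (SE 0.17, adjusted p = 0.653). The lowest value in Control + UVR was that of Ndufb3, an accessory subunit of complex I, at -0.42 (SE 0.17, adjusted p = 0.296).

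**Figure D3:**
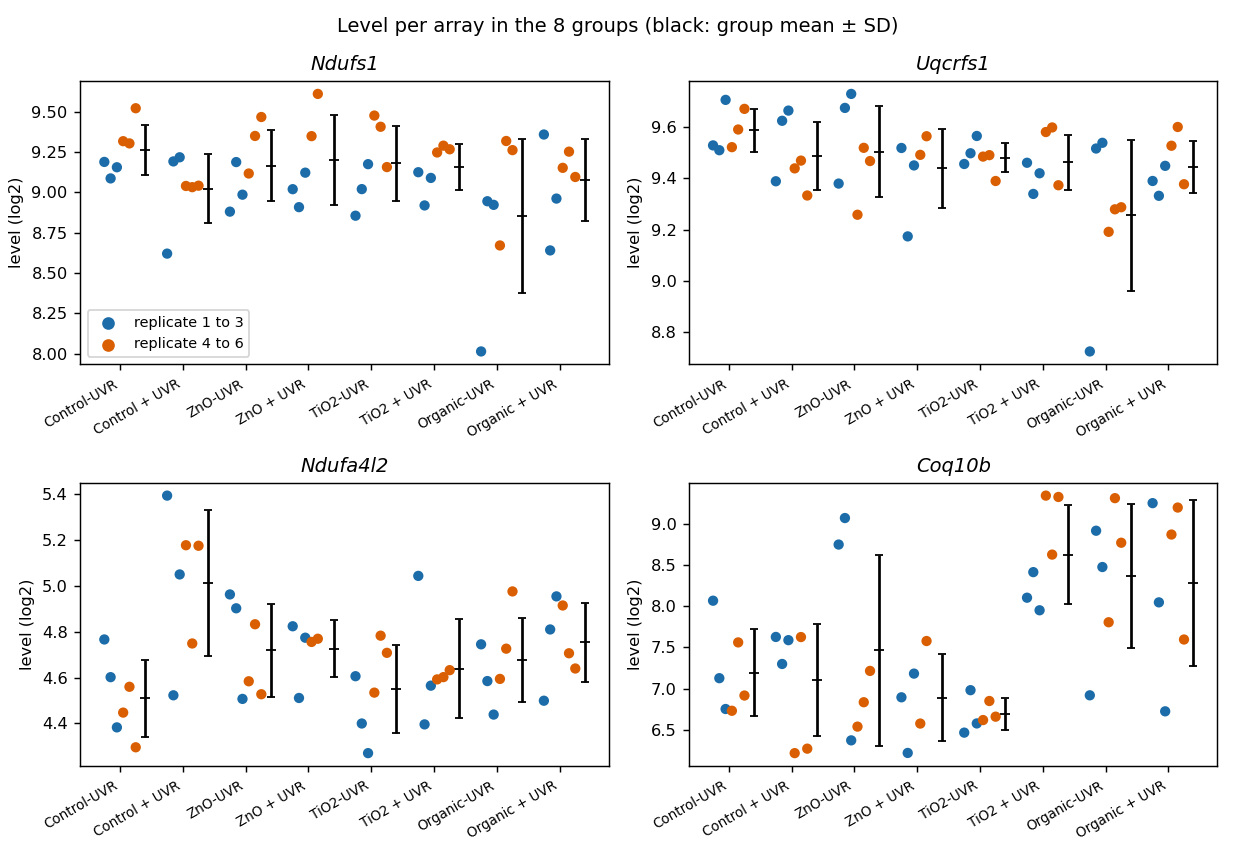
Log2 level per array of Ndufs1, Uqcrfs1, Ndufa4l2 and Coq10b in the 8 groups, with replicate numbers 1 to 3 in blue and 4 to 6 in orange and the group mean ± SD in black. Organic-UVR replicate 1 is the lowest array for Ndufs1 (8.01) and Uqcrfs1 (8.73). The 6 arrays of TiO2 + UVR lie between 7.95 and 9.34 for Coq10b, all above those of TiO2-UVR (6.47 to 6.98).

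In the other groups the extremes among the 42 genes were small. In ZnO-UVR they were 0.21 (Ndufa4l2) and -0.21 (Ndufs6, an accessory subunit that binds zinc), and in ZnO + UVR 0.32 (Atp5d, the δ subunit of ATP synthase, SE 0.31) and -0.24 (Ndufb3). In TiO2-UVR they were 0.19 (Cox8c) and -0.27 (Cox7b), and in TiO2 + UVR 0.16 (Timm9, a small import chaperone) and -0.24 (Ndufa10). In Organic + UVR they were 0.30 (Cox8c) and -0.28 (Ndufa10, adjusted p = 0.243). None of these was called. When UVR was compared with no UVR under the same sunscreen, 0 of 42 genes were called with ZnO (0% of all transcripts), TiO2 (0.652%, with 0.234% higher and 0.418% lower) and Organic (0%). At an unadjusted p under 0.05 there were 2 (2.19% of all), 0 (6.65%) and 0 (3.39%). When each sunscreen was compared with none under UVR, 0 of 42 were called with ZnO (0%), TiO2 (0.703%, with 0.438% higher) and Organic (0.0611%), with 1 (5.9%), 3 (8.46%) and 5 (7.25%) at an unadjusted p under 0.05. The lowest adjusted p among these 6 comparisons was that of Ndufa4l2 under TiO2, given above. Timm22, the carrier import channel, had -0.36 under TiO2 (adjusted p = 0.398) and -0.41 under Organic (adjusted p = 0.396). The 3 differences between UVR effects had 0 of 42 genes called (0% of all transcripts for ZnO, 0.173% for TiO2 and 0% for Organic), with 1 (3.79%), 1 (8.49%) and 4 (7.43%) at an unadjusted p under 0.05.

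Genes around the chain were called mostly in Organic-UVR, where 3.27% of all and 7.01% of bright transcripts were. Among 17 measured assembly factors, Sdhaf4 (-0.54, adjusted p = 0.0782), a factor of complex II, and Taco1 (-0.54, adjusted p = 0.0753), which activates translation of a complex IV subunit within mitochondria, fell in Organic-UVR. Taco1 also fell in Organic + UVR (-0.59, adjusted p = 0.0749). Its levels were 6.40, 7.16 and 7.37 (lowest, median and highest) in Control-UVR, 6.26, 6.45 and 6.86 in Organic-UVR and 5.98, 6.52 and 6.86 in Organic + UVR (SD 0.35, 0.25 and 0.31). Every array with the organic sunscreen lay below 5 of the 6 controls, and the control at 6.40 lay among them. Among 28 genes of the mitochondrial ribosome, Mrpl10 (-0.37, adjusted p = 0.0797), Mrpl13 (-0.49, adjusted p = 0.0818) and Mrpl54 (-0.40, adjusted p = 0.0984) fell in Organic-UVR, where 27 of the 28 differences were below 0 with a median of -0.34, beside -0.22 for bright transcripts. Without Organic-UVR replicate 1 there were 25 below 0 with a median of -0.23, beside -0.07. Pdss2 (-0.67, adjusted p = 0.0603), which makes the side chain of coenzyme Q, fell among 5 genes of electron carriers, and the peptidase Mipep (-0.55, adjusted p = 0.0778) among 8 further import genes. These Organic-UVR calls were lost in 6 (Pdss2) to 9 (Taco1 and Mrpl54) of 12 fits with a single array left out. All were lost with no replicate block, in a fit of the compared groups alone and with the array slope as a covariate. The same held at an adjusted p under 0.05 and within replicate numbers 1 to 3 or 4 to 6. After quantile normalization only that of Pdss2 remained (0.0890), while all remained with array weights and after the filter on dim transcripts. None held without Organic-UVR replicate 1, where the adjusted p ran from 0.219 for Taco1 to 0.429 for Mrpl13 and Mrpl54. The difference of Taco1 was then -0.53 and that of Mrpl10 -0.32, close to those with the array, while those of Sdhaf4 (-0.39), Mrpl13 (-0.32), Mrpl54 (-0.30), Pdss2 (-0.45) and Mipep (-0.35) came nearer to 0. In contrast to these, the call of Taco1 in Organic + UVR held without that array (0.0467). It was lost without Organic + UVR replicate 3, 4 or 6 or any Control-UVR replicate but 5 (adjusted p from 0.0177 to 0.338 over single arrays left out). It was also lost with no replicate block (0.116), in a fit of the compared groups alone (0.167), after quantile normalization (0.228), with the array slope as a covariate (0.268) and within replicate numbers 1 to 3 (0.663) or 4 to 6 (0.193). Of 6 citrate cycle genes and 9 genes of mitochondrial transcription, 0 were called in any comparison. The lowest p-values there belonged in Organic-UVR to the citrate synthase gene Cs (-0.40, adjusted p = 0.224) and to Mterf4 (-0.39, adjusted p = 0.124), and without Organic-UVR replicate 1 the differences were -0.19 and -0.28. In Control + UVR the lowest p-values of the lists were those of Nubpl (-0.50, adjusted p = 0.220), Mrpl32 (-0.47, 0.245), Tfb2m (-0.47, 0.307), Pdss2 (-0.47, 0.308), Mipep (-0.29, 0.447) and Dld (-0.19, 0.516).

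Coq10b, a coenzyme Q binding protein of the inner membrane, had the largest change among all these genes. Its level was 6.47, 6.64 and 6.98 in TiO2-UVR and 7.95, 8.52 and 9.34 in TiO2 + UVR. Every array of TiO2 + UVR lay above every array of TiO2-UVR. The difference was 1.93 (SE 0.39, adjusted p = 0.00678), a 3.82-fold rise. In Control + UVR the level was 6.22, 7.44 and 7.63, also below every array of TiO2 + UVR, and the difference was 1.52 (SE 0.39, adjusted p = 0.0628), or 2.87-fold. This call was lost without Control + UVR replicate 4, 5 or 6 or TiO2 + UVR replicate 4 or 6 (adjusted p up to 0.237), with no replicate block (0.108), with array weights (0.123), in a fit of the compared groups alone (0.180) and within replicate numbers 1 to 3 (0.911). Against Control-UVR (6.73, 7.02 and 8.07) the difference of TiO2 + UVR was 1.43 (adjusted p = 0.103). The level was also high with the organic sunscreen, at 6.92, 8.62 and 9.31 in Organic-UVR and 6.72, 8.46 and 9.25 in Organic + UVR. Their differences from Control-UVR were 1.17 (adjusted p = 0.111) and 1.09 (adjusted p = 0.161), and with and without UVR they differed by -0.09 (adjusted p = 0.998). Without Organic-UVR replicate 1 the difference of Organic-UVR was 1.55 and passed the test (adjusted p = 0.0473). The UVR effect under TiO2 minus that without sunscreen was 2.02 (SE 0.56, adjusted p = 0.163). Within replicate numbers 1 to 3 the difference between TiO2 + UVR and TiO2-UVR was 1.48 (adjusted p = 0.999) and within numbers 4 to 6 it was 2.39 (adjusted p = 0.00430). No subunit of the chain was called in these comparisons.

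The 42 genes varied with the replicate number in the labels. Their mean level lay between 8.29 (Organic-UVR) and 8.47 (Control + UVR) over the 8 groups, whereas the means of replicates 4 to 6 and 1 to 3 lay further apart than that within each of the 8 groups. The methods describe 6 processing batches with 1 chip of each group, but the labels do not say that the replicate number is the batch. An F test over the replicate number in the same limma fit called 26 of the 42 genes (61.9%), where 19.3% of all transcripts, 39.4% of the bright transcripts and 1 of 10 hepatocyte markers were called. The share was 8 of 13 in complex I, 0 of 2 in complex II, 3 of 5 in complex III, 4 of 5 in complex IV, 6 of 8 in ATP synthase, 5 of 7 for Timm and 0 of 2 for Tomm genes. The mean of the 42 genes on an array was on average 8.18 for replicate 1, 8.20 for replicate 2, 8.18 for replicate 3, 8.65 for replicate 4, 8.68 for replicate 5 and 8.54 for replicate 6. Numbers 1 to 3 were thus low and numbers 4 to 6 high. This split was chosen after the values were seen and is given with no test. In 7 of the 8 groups every array numbered 4 to 6 had a higher mean than every array numbered 1 to 3, by 0.27 (Control-UVR and Control + UVR) to 0.64 (Organic-UVR) on average. In Organic + UVR they overlapped, since replicate 1 read 8.58 and replicate 6 read 8.31.

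**Figure D4:**
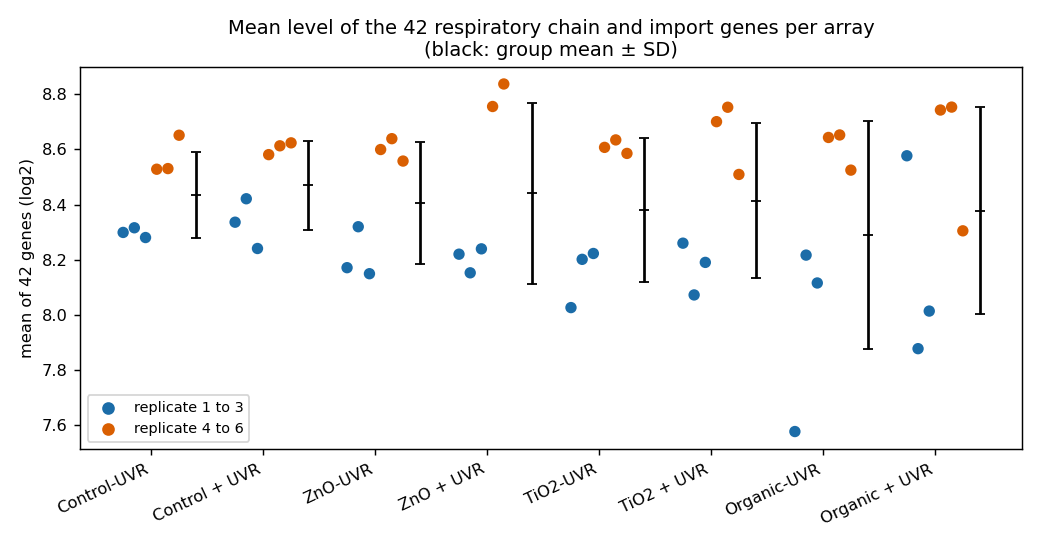
Mean log2 level of the 42 genes on each of the 47 arrays by group, with replicate numbers 1 to 3 in blue and 4 to 6 in orange and the group mean ± SD in black. Orange points lie above all blue points of their group in 7 of 8 groups, while the group means lie between 8.29 (Organic-UVR) and 8.47 (Control + UVR).

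Gene by gene, 36 of the 42 were higher in numbers 4 to 6, with a median of 0.39, against -0.04 over all transcripts and 0.04 in the bright transcripts. The largest values were those of Uqcr11 (1.15, or 2.21-fold) and Ndufa11 (1.10, or 2.15-fold), an accessory subunit of complex I, which also had the largest SD within groups of the 42 (0.74 and 0.72, against medians of 0.34 for the 42 and 0.26 for all transcripts). In Control-UVR Uqcr11 read 6.74, 6.69 and 6.64 in replicates 1 to 3 and 6.97, 7.01 and 7.42 in replicates 4 to 6. In ZnO-UVR it read 6.04, 6.34 and 6.41 and then 7.97, 7.46 and 6.96. Both sets lay apart by replicate number, whereas the means of the 2 groups were 6.91 and 6.86. Next were Uqcrq at 1.06, Atp5mpl at 0.95, Atp5g2 at 0.95, Cox6c at 0.89, Cox7a2l at 0.89, Ndufb3 at 0.87 and Uqcr10 at 0.84. Lower values were those of Ndufs1 (0.28), Sdha (0.27), Atp5b (0.18) and Uqcrfs1 (-0.00), and the lowest were those of Cox8c (-0.14), Ndufc1 (-0.10), Tomm20l (-0.09), Ndufs4 (-0.08) and Timm8a2 (-0.02). By complex the median was 0.84 for complex III, 0.71 for complex IV, 0.60 for ATP synthase, 0.36 for complex I, 0.29 for Timm, 0.22 for complex II and -0.02 for Tomm genes. Genes with a longer span in the genome tended to lower values across the 42 genes, which are not independent. Pearson's r with the log10 of the span was -0.33, and Spearman's rho with the span was -0.33. The span is that of the named gene. For the 10 genes whose probeset is numbered on another chromosome it may not be that of the transcript measured.

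**Figure D5:**
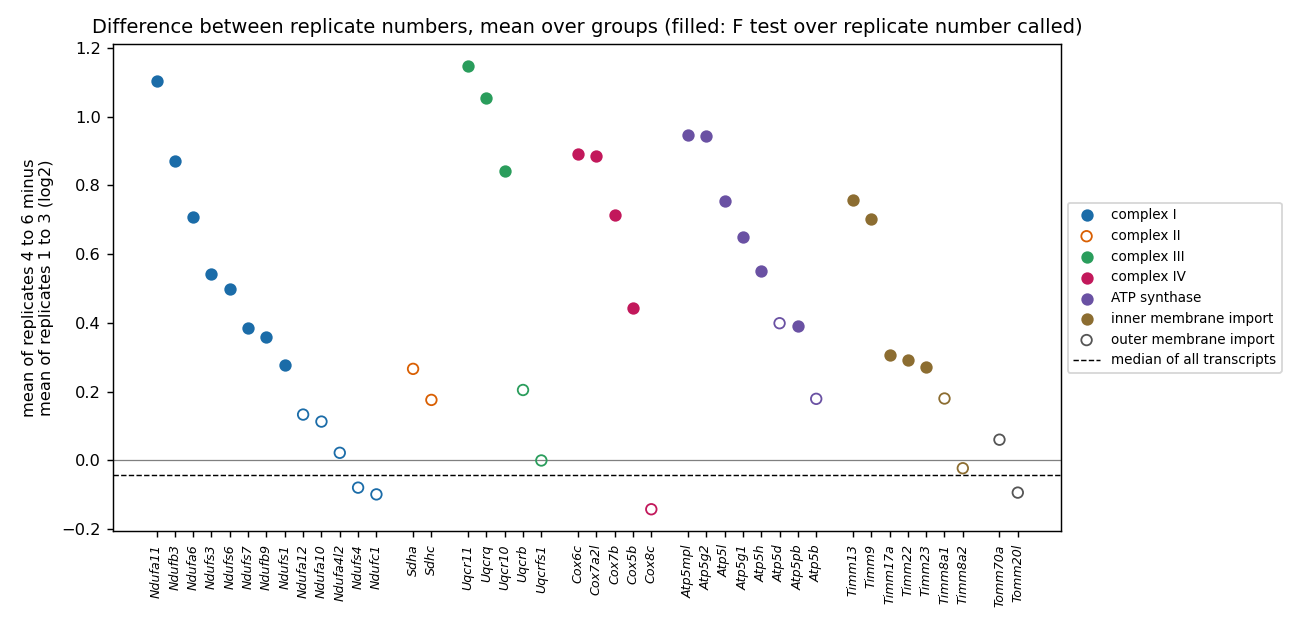
Mean of replicates 4 to 6 minus mean of replicates 1 to 3 (log2, averaged over the 8 groups) for each of the 42 genes, ordered within complexes, with filled points where the F test over replicate number was called. Values run from -0.14 (Cox8c) to 1.15 (Uqcr11), and the dashed line is the median of all transcripts (-0.04).

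All 28 genes of the mitochondrial ribosome were higher in numbers 4 to 6 with a median of 0.32 and 16 called in the F test, and 9 of 17 assembly factors were called with a median of 0.06. Of the hepatocyte markers 5 of 10 were higher, with a median of 0.01. The 32 genes whose probeset is numbered among those of their own chromosome had a median of 0.33 and the 10 others, whose values may come from gene, copy or both, 0.63. The array slope had a median of 1.01 in numbers 1 to 3 and 1.02 in numbers 4 to 6, and without Organic-UVR replicate 1 the median of the 42 genes was 0.35 with 37 higher. What the replicate number stands for, and its part in these values, was not tested.

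The genes also varied together after group and replicate number had been removed. The median correlation between pairs of the 42 over the 47 arrays was 0.38, against 0.31 for pairs of bright transcripts and 0.00 over all transcripts. It was 0.51 within ATP synthase and within complex II, 0.43 within complex IV, 0.38 within complex III, 0.35 within complex I, 0.22 within Timm and -0.07 within Tomm genes. The most alike were Atp5b and Sdha (r = 0.95), Atp5d and Atp5g1 (r = 0.94) and Timm8a1 and Tomm70a (r = 0.91). Cox8c ran opposite to the mean of the other genes (r = -0.73), as did Timm8a2 (r = -0.43) and Tomm20l (r = -0.38), while Ndufa4l2 was unrelated to it (r = -0.11). The pairs share arrays and their scale, and the array slope correlated with Atp5b (r = 0.88) and Cox8c (r = -0.84), so these values are descriptions only. Without Organic-UVR replicate 1 the median correlation was 0.27 for the 42 genes and 0.15 for bright transcripts, and that of Tomm genes was 0.21. It was then 0.46 within ATP synthase, 0.42 within complex II and 0.34 within complex IV. Within complex III it was 0.26, within complex I 0.21 and within Timm genes 0.24. The pairs named remained at 0.93, 0.93 and 0.90. With the mean of the other genes Cox8c had -0.56, Timm8a2 -0.14, Tomm20l -0.20 and Ndufa4l2 -0.21.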

How the data were processed

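Total RNA of liver was hybridised to Affymetrix arrays (Mouse Gene 1.0 ST), with 1 mouse on each, and the labels call the arrays biological replicates. The values deposited by the authors are log2 levels after robust multi-array averaging, which the submitters' processing notes list as RMA. The methods describe removal of batch effects, and it is not given in the sources used here whether the deposited values had this step. The table used here is a part of the array. Of its 9815 transcripts after control probesets, 7450 had 1 gene symbol, 511 several and 1854 none. Of the transcripts with 1 symbol, 7421 matched a RefSeq gene of GRCm38.p6.

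limma 3.58.1 in R 4.3.3 (lmFit, contrasts.fit, eBayes) fitted all 8 groups together with the replicate number as a block (34 residual degrees of freedom). p-values were Benjamini-Hochberg adjusted over all transcripts, and a transcript was called under 0.1. Correlations were taken on residuals of this model. The genes, lists and tests were chosen with earlier results of these data known. Named were called genes, the highest and lowest gene of each complex by level, the largest rise and fall of each comparison with Control-UVR, the 2 largest SDs within groups, and in the pathway lists called genes and those with the lowest p. In those lists the genes with the lowest p that were not called are given for Control + UVR and Organic-UVR. Other genes in the text were chosen after their values were seen.

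The alternatives were no replicate block, the compared groups alone, a filter on dim transcripts (mean above the median of all transcripts), array weights, adjusted p under 0.05, quantile normalization, the array slope as a covariate, every probeset of a gene, Ndufaf names counted as members and leaving out each array. Fits within replicate numbers 1 to 3 or 4 to 6 were added after seeing the data. The script was tested on simulated data. The number of arrays limits the precision. Promoter windows of Atp5mpl, Cox6c, Cox8c, Ndufa4l2, Ndufb9, Ndufs1, Sdhc, Uqcrb and Uqcrq were not used here.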

Additional observations from a re-analysis of the deposited data

Results flagged for a closer look

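Among 336 sets of a gene and a group, 22 (6.55%) held 1 array far from the others, where chance gives about 1 in 20 such sets. Of these, 12 were Organic-UVR replicate 1, the array with the slope of 0.772 (0.989 to 1.04 in the other Organic-UVR arrays). It was low for Atp5d (7.68), Atp5h (8.16), Ndufb9 (9.23), Ndufs4 (9.01), Ndufs6 (7.27), Sdha (9.25), Timm17a (6.73), Timm23 (8.80) and Tomm70a (7.49). It was high for 3 of the dimmer genes, Cox8c (5.98), Timm8a2 (3.88) and Tomm20l (6.17).

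Control + UVR replicate 1 stood apart for 4 genes, low for Ndufs1 (8.62, against 9.03 to 9.22 in the other arrays) and Sdha (9.55), and high for Ndufa12 (8.39) and Tomm20l (6.10). Further single arrays stood apart for Atp5d in Control-UVR replicate 4 (9.11) and ZnO-UVR replicate 4 (10.6), for Ndufa4l2 in ZnO + UVR replicate 2 (4.51) and TiO2 + UVR replicate 1 (5.04), for Timm17a in TiO2 + UVR replicate 5 (8.41) and for Timm8a2 in Organic + UVR replicate 4 (3.57). The array slope of Control-UVR replicate 6 (1.05) stood above the others of its group (1.02 to 1.03). None of the 42 genes had a called difference between UVR effects with and without a sunscreen.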

How the results depend on the processing

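Of the 42 genes, 2 were called in Organic-UVR. This count was 0 with no replicate block, with the compared groups alone, after quantile normalization, with the array slope as a covariate, at an adjusted p under 0.05 and within replicate numbers 1 to 3 or 4 to 6, and it was 4 after the filter on dim transcripts. When single arrays were left out it ran from 0 to 4. It fell to 0 when replicate 1 or 4 of Organic-UVR or replicate 1, 2, 3 or 6 of Control-UVR was left out, to 1 when replicate 4 of Control-UVR was, and rose to 4 when replicate 3 or 5 of Organic-UVR was. In Control + UVR the count of 0 became 1 with array weights and 5 within replicate numbers 4 to 6, and ran from 0 to 1 when arrays were left out (1 when replicate 2 of Control + UVR or replicate 1 of Organic-UVR was). In Organic + UVR it became 8 with array weights, and ran from 0 to 1 (1 without Organic + UVR replicate 1). Between TiO2 + UVR and Control + UVR it became 5 within replicate numbers 4 to 6, and ran from 0 to 1 (1 without Control + UVR replicate 2). For the UVR effect under TiO2 minus that without sunscreen it became 3 within replicate numbers 4 to 6. The cause was not tested. Every other count of the 42 genes under these alternatives was that of the report or close to it. The genes behind a count could still differ. With array weights the call of Ndufs1 in Organic-UVR was lost (-0.24, adjusted p = 0.125), while that of Uqcrfs1 remained. No gene with a call changed direction, whereas medians of the 42 did, also where they were not near 0. The median of Organic-UVR against Control-UVR was -0.20 in the main fit. That of Organic + UVR against Organic-UVR was 0.11 in the main fit and -0.10 with array weights. The medians that follow are of differences from Control-UVR. Within replicate numbers 4 to 6 the median was 0.03 in Organic-UVR, 0.10 in TiO2 + UVR and 0.01 in Organic + UVR, within numbers 1 to 3 it was -0.13 in ZnO + UVR, after quantile normalization it was 0.04 in TiO2 + UVR, 0.01 in Organic + UVR and 0.00 in TiO2-UVR, and when single arrays were left out it ran from -0.02 to 0.07 in Control + UVR, from -0.06 to 0.01 in TiO2 + UVR and from -0.00 to 0.06 in ZnO + UVR. The call of Coq10b between TiO2 + UVR and TiO2-UVR was lost within replicate numbers 1 to 3 only.

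Samples of the same number did not deviate together throughout. Correlations of their deviations from the group means ran from -0.51 to 0.64 over the comparisons, with both extremes in Organic + UVR against Organic-UVR. The main fit still held the replicate number as a block, which sets arrays of the same number against each other. The F test over it called 19.3% of all transcripts. Without the replicate block the adjusted p of Ndufs1 was 0.201 and that of Uqcrfs1 0.113, with 0 genes of the 42 called in Organic-UVR.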
